A study of Bos taurus and Felis catus with 14 samples.

Results

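The microRNAs mir-200a, mir-200b, mir-200c, mir-141, mir-429 and mir-205 were located in the cow and in the cat by small RNA sequencing, and the loci called in each species included 1 for each of the 6 names. Members were taken from the deposited call sets by family name alone, as every hairpin precursor named mir-200, mir-141, mir-429 or mir-205 with any letter, copy number or suffix, and names opening with as- (a hairpin on the strand opposite a known microRNA) were left out. This gave 6 of 810 cow loci and 6 of 495 cat loci, or 12 of 1305 in all. The cow set came from 10 libraries of 3 Angus steers, each of a different tissue: retina, iris, optic nerve, bone marrow, submandibular lymph node, dental pulp, penis and oral papillae of steer 1, brain stem of steer 2 and hoof corium of steer 3. The cat set came from 4 libraries, 2 of skin and 2 of skeletal muscle, from 3 neutered male domestic short-haired cats. No animal was described as treated or genetically altered, and neither species had a control group. The libraries of a species were pooled before loci were called, so there was 1 call set per species and no replicate, and none of the differences given here could be tested. A call set lists each precursor and its mature products by start, end and strand, and its score column held 0 values, so it gives neither the depth behind a locus nor the tissue it came from, and the study's separate read counts were not used here.

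MicroRNAs are cut from a hairpin, first by Drosha in the nucleus and then by Dicer in the cytoplasm, and the cuts leave a 5p product from the first arm and a 3p product from the second. The product loaded into Argonaute recognises messenger RNAs mainly through its seed, bases 2 to 8. The mir-200 family is known from epithelial cells, where it holds down ZEB1 and ZEB2, repressors of the E-cadherin gene, and so keeps cells from turning mesenchymal. mir-205, which belongs to another family, is known from skin and other stratified epithelia and also targets ZEB1 and ZEB2. In mammals the mir-200 genes lie in a pair of clusters, one with mir-200b, mir-200a and mir-429 and the other with mir-200c and mir-141. The word epithelial describes what is known of these microRNAs. It was not measured here, because the call sets carry no level per tissue. The paper itself reports, from its read counts and quantitative PCR, that fca-mir-205 was abundant in cat skin when compared with muscle.

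The mature sequences show why the 5 clustered microRNAs are treated as one family, and why they fall into 2 seed groups. The lines that follow give the human 3p products, with the seed in capitals, as the study lists them for its human libraries, which were mainly of established cell lines. Bovine and feline letters were not used here, and the human sequences stand for the names only.
hsa-mir-200b-3p: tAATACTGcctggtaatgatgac
hsa-mir-200c-3p: tAATACTGccgggtaatgatgga
hsa-mir-429-3p: tAATACTGtctggtaaaaccgt
hsa-mir-200a-3p: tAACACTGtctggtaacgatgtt
hsa-mir-141-3p: tAACACTGtctggtaaagatggc
hsa-mir-205-5p: tCCTTCATtccaccggagtctg
hsa-mir-205-3p: gATTTCAGtggagtgaagttc

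The 3p products of mir-200b, mir-200c and mir-429 had the seed AATACTG, and those of mir-200a and mir-141 had AACACTG. Counted from 1 at the 5′ end, the seeds of hsa-mir-200a-3p and hsa-mir-200b-3p differed by C4T and by no other base. Within the seed groups, mir-200b and mir-200c were identical at 20 of 23 positions and mir-141 and mir-200a also at 20 of 23, whereas mir-429 shared 16 of 22 positions with mir-200b and 15 of 22 with mir-200c. Across the groups, mir-429 shared 17 of 22 positions with mir-200a and 17 of 22 with mir-141, more than within its own group. The remaining pairs across the groups shared 17 to 19 of 23. Likeness over the whole product thus did not follow the seed groups for mir-429. Neither arm of mir-205 carried either of these seeds. By these human seeds each genomic cluster holds both groups, and in both the AATACTG member lies first in the direction of transcription: mir-200b before mir-200a, and mir-200c before mir-141. In the larger cluster mir-429, again with AATACTG, follows mir-200a.

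The larger cluster held mir-200b, mir-200a and mir-429 in this order in both species. No source used here gives the genome build behind the positions, and cat sequences are called by the names in the file. In the cow the cluster was on the minus strand of chromosome 16, with bta-mir-200b at chr16:52521971-52522071, bta-mir-200a at chr16:52521318-52521418 and bta-mir-429 at chr16:52520086-52520177. In the cat it was on the plus strand of sequence NC_018730.2, with fca-mir-200b at 276661 to 276725, fca-mir-200a at 277369 to 277428 and fca-mir-429 at 278739 to 278803. The 3 hairpins spanned 1986 nt in the cow and 2143 nt in the cat. They were loci 24, 22 and 21 of the 36 on cow chromosome 16, counted by start, but loci 2, 4 and 5 of the 37 on the cat sequence, where they lay close to its first base.

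The smaller cluster held mir-200c and mir-141. In the cow it was on the minus strand of chromosome 5, with bta-mir-200c at chr5:103859437-103859504 and bta-mir-141 at chr5:103859016-103859079. In the cat it was on the plus strand of sequence NC_018729.2, with fca-mir-200c at 41956866 to 41956933 and the cat mir-141 locus at 41957288 to 41957351. The name of this cat locus carries a suffix that the study gave to loci named by homology and not in its annotation for the species. No other member of either set had that suffix. The pair spanned 489 nt in the cow and 486 nt in the cat.

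With a cluster taken as loci separated by gaps of at most 10 kb on either strand, 5 of the 6 members were clustered in each species, beside 29.0% of all cow loci and 33.3% of all cat loci. mir-205 was the exception in both. Nearness to other hairpins was one of the features by which the authors' classifier scored a locus, so these shares are not independent of how the loci were called. The members were also chosen by names already known to form these clusters in mammals, so the share over all loci gives their count no further meaning.

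**Figure D1:**
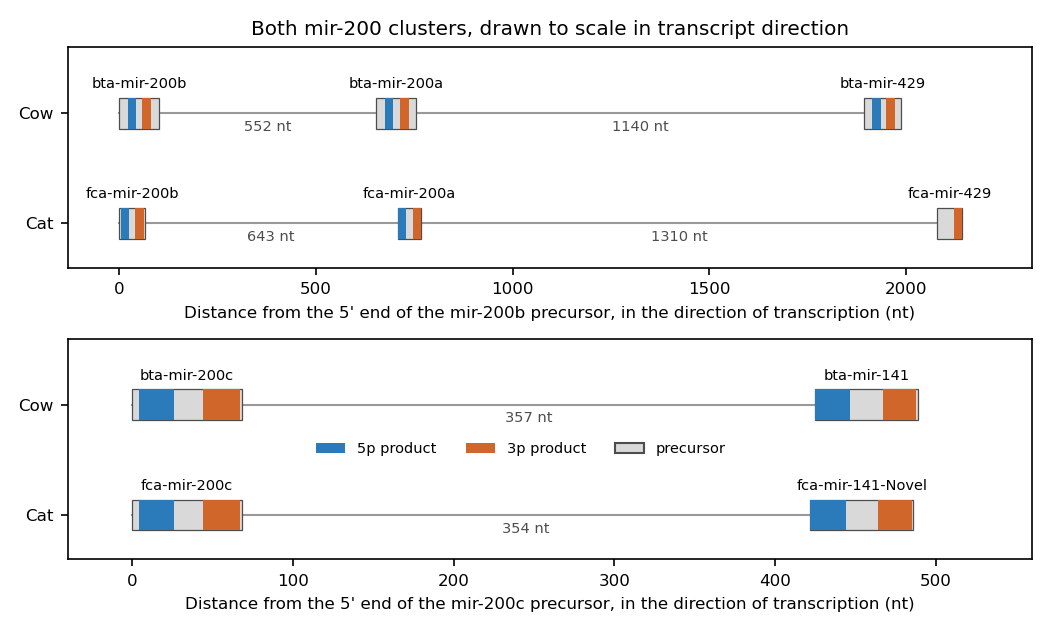
Precursors (grey) and their 5p (blue) and 3p (orange) products in both mir-200 clusters, drawn to scale in the direction of transcription from the 5′ end of the first precursor (x axis, nt), with the gap between precursors printed below the line. The order is the same in cow and cat, the mir-200c to mir-141 gap is 357 nt in cow and 354 nt in cat, and the 2 gaps of the larger cluster are longer in cat.

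The clusters differed in how far their spacing was shared by the species. Between mir-200c and mir-141 the gap was 357 nt in the cow and 354 nt in the cat, 3 nt shorter in the cat. Between mir-200b and mir-200a it was 552 nt in the cow and 643 nt in the cat, and between mir-200a and mir-429 it was 1140 nt in the cow and 1310 nt in the cat, so that both gaps of the larger cluster were longer in the cat, by 91 and 170 nt.

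Part of these differences came from how long each precursor was drawn. All 3 precursors of the larger cluster were longer in the cow than in the cat: mir-200b had 101 nt against 65 nt, mir-200a 101 nt against 60 nt and mir-429 92 nt against 65 nt. The cow spans ran 15 to 22 nt past a mature product at either end, and the cat spans at most 4 nt past one wherever a product marked that end. By contrast the precursors of mir-200c (68 nt), mir-141 (64 nt) and mir-205 (63 nt) had the same length in both species. A precursor running more than 10 nt past a product was seen for 3 cow members and 0 cat members, beside 12.7% of all cow loci and 8.08% of all cat loci.

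Distances between 3p products do not depend on the precursor span. From the 5′ end of one 3p product to that of the next, mir-200b to mir-200a was 655 nt in the cow and 706 nt in the cat, a difference of 51 nt in place of 91 nt. Likewise mir-200a to mir-429 was 1237 nt in the cow and 1375 nt in the cat, a difference of 138 nt in place of 170 nt. Only the mir-200c to mir-141 distance kept its difference, at 423 nt in the cow and 420 nt in the cat. The cat to cow ratios were thus 1.08, 1.11 and 0.993.

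These ratios were set beside every other pair of microRNAs that had the same names in both species, after the homology suffix was removed, that were neighbours on the same strand of the cow, and that lay on 1 strand within 10 kb in both. Distances were taken between 3p products, or between 5p products where a 3p product was not listed. There were 37 such pairs, the 3 mir-200 pairs included, and all 37 were in the same order in both species. The cat distance was longer in 20, shorter in 16 and equal in 1, with a median ratio of 1.01 and quartiles of 0.985 and 1.05. The distance between mir-200c and mir-141 differed by 0.709% of its cow length, and 4 of the 37 pairs differed by less. The other pairs of the family were further apart, by 7.79% for mir-200b to mir-200a, with 28 pairs closer, and by 11.2% for mir-200a to mir-429, with 32 pairs closer. The median over the 37 pairs was 2.46%.

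**Figure D2:**
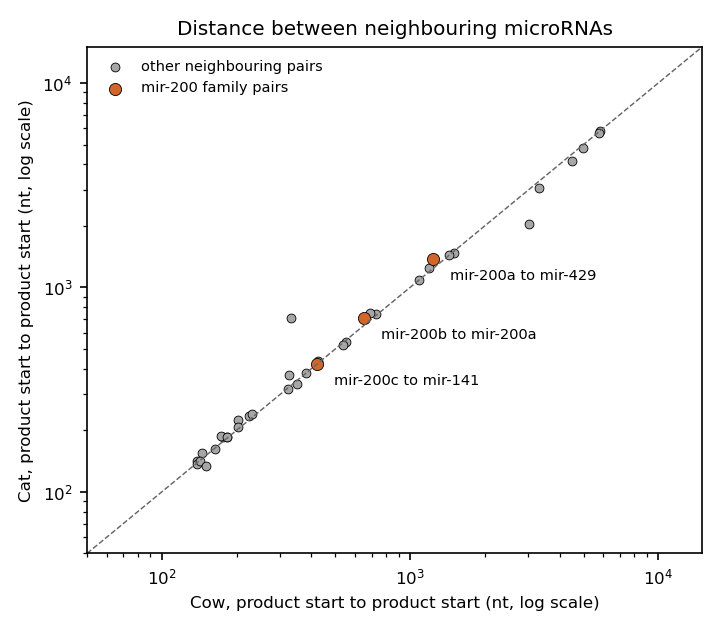
Distance between the product starts of neighbouring microRNAs in cow (x axis, nt, log scale) and cat (y axis, nt, log scale), 1 point per pair of same-named neighbours (37 pairs), with the 3 mir-200 family pairs in orange and equality as a dashed line. The mir-200c to mir-141 pair lies on the line, and the other 2 mir-200 pairs lie above it.

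Products of both arms were listed for 6 of 6 cow members and 5 of 6 cat members, beside 72.5% of all cow loci and 65.7% of all cat loci. The exception was fca-mir-429, for which only the 3p product (21 nt, at 278782 to 278802) was listed, although its precursor ran on far enough to hold the other arm. In the cow, bta-mir-429 had a 5p and a 3p product of 21 nt each. No arm of any member had more than 1 product.

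The spacing of the arms within a hairpin did not differ between the species. From the 5′ end of the 5p product to the 5′ end of the 3p product, mir-200b measured 36 nt in the cow and 36 nt in the cat, and mir-200a 38 nt in both. The smaller cluster had wider hairpins, with 40 nt for mir-200c and 42 nt for mir-141 in both species. mir-205 measured 37 nt in both, and bta-mir-429 measured 36 nt, with no cat value to set beside it. All 5 members with both arms in both species thus had the same spacing, beside 77.8% of the 162 same-named loci of the sets (126 loci), and with full names required the count was 4 of 4 members beside 78.7% of the loci. At this background rate, 5 of 5 does not set the members apart.

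**Figure D3:**
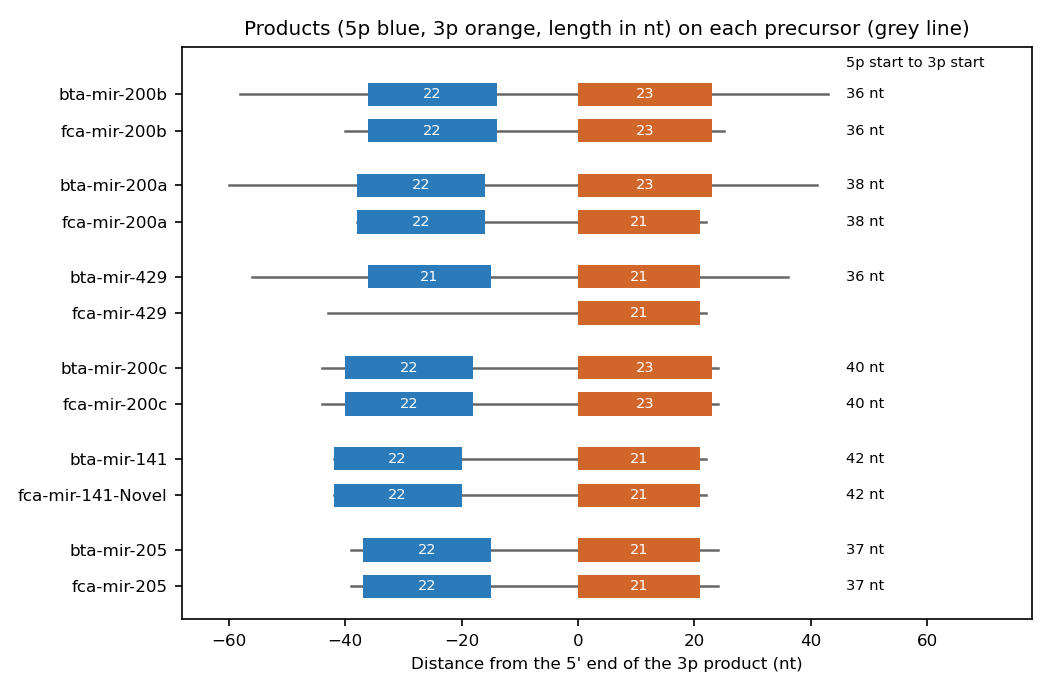
Products (boxes, 5p blue and 3p orange, with the length in nt) on each precursor (grey line) for the 6 members in cow (bta) and cat (fca), aligned on the 5′ end of the 3p product (x axis, nt), with the 5p start to 3p start distance at the right. The distances are equal within each pair, the cow precursors of mir-200b, mir-200a and mir-429 reach further out than those of the cat, and fca-mir-429 has no 5p box.

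Among all loci with both arms, the 5p start to 3p start distance had a median of 38 nt in each set, with quartiles of 36 and 41 nt. The mir-200b, mir-429, mir-205, mir-200a and mir-200c values of 36 to 40 nt lay within these quartiles, and only mir-141 lay above them. In the cow 113 of 587 loci, and in the cat 64 of 325, had 42 nt or more. The stretch between the end of the 5p product and the start of the 3p product, which holds the loop, ran in the same order, with 14 nt in mir-200b, 15 nt in bta-mir-429 and mir-205, 16 nt in mir-200a, 18 nt in mir-200c and 20 nt in mir-141, equal in cow and cat wherever both had a value.

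**Figure D4:**
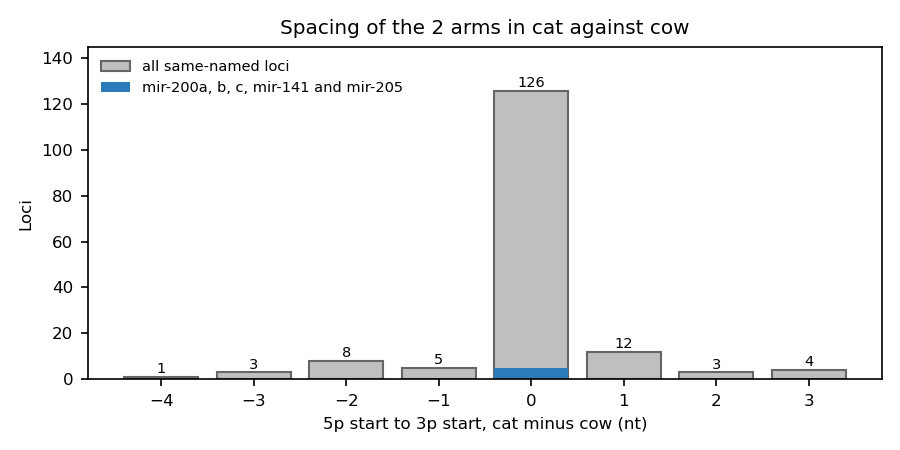
Number of same-named loci (y axis) by the difference in 5p start to 3p start distance, cat minus cow (x axis, nt), for the 162 loci with both arms in both species. The difference was 0 for 126 loci, among them mir-200a, mir-200b, mir-200c, mir-141 and mir-205 (blue).

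Product lengths were shared for 10 of the 11 products that both species had, beside 75.1% of the 354 products of same-named loci. The 5p products were 22 nt long in 10 of 11 cases, the exception being the 21 nt of bta-mir-429. These cases count the same members once in each species, so they are not independent. Over all loci, 22 nt was the length of 44.2% of cow 5p products (292 of 661) and 47.8% of cat 5p products (185 of 387). Among the 3p products, those of mir-200b and mir-200c were 23 nt long in both species, and those of mir-429, mir-141 and mir-205 were 21 nt long in both. The 3p product of mir-200a alone differed, with 23 nt in the cow (chr16:52521336-52521358) and 21 nt in the cat (277407 to 277427). Its 5′ end, which sets the seed, lay 38 nt from the 5p start in both, so relative to the 5p product the difference was at the 3′ end. Cow and cat sequences were not aligned here, so a shared seed was not tested. In the sets as a whole, a 3p product was 2 nt or more shorter in the cat for 10 of 178 same-named loci.

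The mir-200a hairpin was also the only member with a locus on the opposite strand, and it had one in each species. In the cow this was as-bta-mir-200a (chr16:52521334-52521399, plus strand, 66 nt), with a 22 nt 3p and a 23 nt 5p product and a spacing of 39 nt. In the cat the locus at the same place was fca-mir-3548 (277365 to 277431, minus strand, 67 nt), named after another microRNA and listed with a 22 nt 3p product only. A locus on the opposite strand overlapped 6.17% of all cow loci and 6.87% of all cat loci.

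The facing products were offset in the same way. In the cow the 3p product of as-bta-mir-200a (chr16:52521377-52521398) covered 20 nt of mir-200a-5p (chr16:52521375-52521396), and each of them ran 2 nt past the other at its 3′ end. In the cat the 3p product of fca-mir-3548 (277367 to 277388) covered 20 nt of mir-200a-5p (277369 to 277390), and again each ran on by 2 nt at its 3′ end. The other cow pair, the 5p product of as-bta-mir-200a and mir-200a-3p, shared 21 nt with the same offset of 2 nt. Such an offset at both 3′ ends was found for 5 of 44 facing product pairs in the cow and 5 of 25 in the cat. These counts include the cow and cat pairs at mir-200a given above. How abundant these products were is not in the call sets.

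The human products with the same names as in the cow show the letters of this arrangement. The shared, reverse complementary stretch is in capitals, and it was the same length as in cow and cat, 20 of 20 bases, with 2 bases left at each 3′ end.
hsa-mir-200a-5p: CATCTTACCGGACAGTGCTGga
as-hsa-mir-200a-3p: CAGCACTGTCCGGTAAGATGct

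The product opposite human mir-200a thus had the seed AGCACTG, which is neither of the family's 3p seeds. The study also lists a human 3p product opposite mir-141, and its seed was AACACTG, as in mir-200a-3p and mir-141-3p. No locus opposite mir-141 was called in the cow or the cat. In both human lines the printed order is 5′ to 3′, so the first base of one pairs with the last capital of the other.

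**Figure D5:**
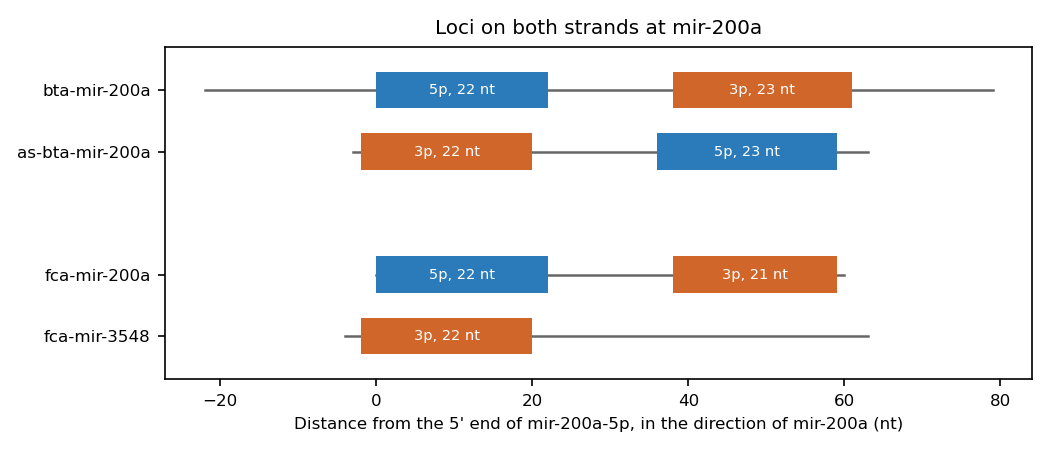
Loci on both strands at mir-200a in cow (top) and cat (bottom), with products as boxes and precursors as grey lines, drawn against the distance from the 5′ end of mir-200a-5p in the direction of mir-200a (x axis, nt). The 3′ end of the opposite 3p product lies 2 nt further out than the 5′ end of mir-200a-5p in both species, and the opposite 5p product is listed in the cow only.

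Besides the members and the loci opposite mir-200a, 1 locus lay in a cluster by the 10 kb rule. This was fca-Novel171 on the cat sequence with mir-200c (41950581 to 41950639, plus strand), a 59 nt precursor with a 22 nt 3p product, 6226 nt before fca-mir-200c. In the cow the nearest locus to bta-mir-200c beyond bta-mir-141 was bta-Novel294, at 313095 nt. The cow clusters thus held 6 loci and the cat clusters 7.

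In the bovine gene annotation from RefSeq (ARS-UCD2.0, used for names and neighbours only), all 6 members matched 1 gene each. MIR200B, MIR200A and MIR429 lay between the protein-coding genes TTLL10, a tubulin ligase family member, and C16H1orf159, with MIR429 on the TTLL10 side. MIR200C and MIR141 lay within the long noncoding RNA gene LOC112446758, between PHB2, which encodes prohibitin 2, and PTPN6, which encodes the phosphatase SHP-1, with MIR141 on the PHB2 side. MIR205 lay between CAMK1G and PLXNA2, which encode a calmodulin-dependent kinase and a semaphorin receptor. No cat annotation was used here.

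mir-205 stood alone. In the cow it was on the minus strand at chr16:75799968-75800030, the same chromosome as the larger mir-200 cluster, and in the cat on the minus strand of sequence NC_018739.2 at 34029457 to 34029519, a sequence that held no mir-200 locus. The nearest locus was bta-Novel173 at 307357 nt in the cow and a homolog of mir-1271 at 516874 nt in the cat. Beyond these the next locus was mir-29b-2 in both species, on the opposite strand from mir-205, at 1677987 nt in the cow and 1485023 nt in the cat. Its products were the same in both species in every measure taken, with a 5p product of 22 nt that began 2 nt into the precursor, a 3p product of 21 nt that ended 3 nt before its end, a spacing of 37 nt and a precursor of 63 nt.

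Other microRNAs known from epithelia, skin or sensory organs were looked for by name. Of the 7 families mir-203, mir-31, mir-96, mir-182, mir-183, mir-184 and mir-375, 6 had 1 locus in each species, and mir-203, which is known from skin, was in neither set. Both arms were listed in both species for 3 of them, and the spacing was equal for 2: mir-31 (36 nt) and mir-183 (40 nt), while mir-182 had 44 nt in the cow and 42 nt in the cat. Over all 192 same-named loci, with the homology suffix removed, 162 had both arms in both species, and 126 of these had equal spacing. As with mir-429, only 1 arm was listed in the cat for mir-96 (5p), mir-184 (3p) and mir-375 (3p), and both arms in the cow.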

How the data were processed

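Small RNA was sequenced from 10 bovine and 4 feline libraries. The authors trimmed adaptors with cutadapt (version 1.15 in the submitters' processing notes), mapped the reads with Bowtie and called loci with miRWoods, which classifies read stacks and then hairpins, on all libraries of a species together. The deposited values are genomic positions of precursors and products, counted from 1, and no source used here gives the genome build. The position files hold no read numbers or levels, and the read counts that the study tabulates elsewhere were not used here, so no depth is given for a locus and every statement is a description without a test.

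Loci, gaps, clusters (10 kb) and product distances were computed in Python 3 scripts. The routines were tested on simulated lists, in which all clusters were recovered in 50 of 50 lists. Same-named loci are those whose name occurs once in each set. Named loci are all members, loci that overlap or share a cluster with one, loci nearest to mir-205 and a list of 7 other families. Others, such as bta-Novel294, mir-29b-2 and the RefSeq neighbours, were added with values in view. The members and lists were chosen with earlier results of these data known. Human mature sequences were taken from the study's supplementary tables, letters only. Alternatives tried were other cluster distances, same-strand clusters, product-based distances, a product length limit of 20 to 24 nt and other name matching.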

Additional observations from a re-analysis of the deposited data

How the results depend on the processing

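Of the differences between cat and cow, the gaps of the larger cluster moved when measured between the 5′ ends of the 3p products, from 91 to 51 nt for mir-200b to mir-200a and from 170 to 138 nt for mir-200a to mir-429, with the same direction; the other gap stayed at -3 nt. Measured this way the cow distances were 655, 1237 and 423 nt and the cat distances 706, 1375 and 420 nt, and between precursor midpoints they were 653, 1236.5 and 423 nt in the cow and 705.5, 1372.5 and 420 nt in the cat. These exceed the gaps by construction, since they include parts of the precursors. Measured from the 5p end to the 3p start, the arm distance was 14 nt for mir-200b, 16 nt for mir-200a, 18 nt for mir-200c, 20 nt for mir-141 and 15 nt for mir-205 in both species, and 15 nt for mir-429 in the cow; the cat minus cow difference remained 0 for the 5 members. With gaps of at most 1 kb, 4 members were clustered in each species in place of 5, because mir-429 dropped out. The clusters held 5 to 6 loci in the cow and 5 to 8 in the cat over all distances. Counts of members with both arms did not change with products of 20 to 24 nt only. No paired analysis was possible because the deposited sets hold 1 call set per species and no result comes from a test. Read counts were not used here, so how rare a product missing from a set was, such as fca-mir-429-5p, was not examined.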
